A study of Caenorhabditis elegans with 4 samples.

Results

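The genes described here act in making, activating and using sperm in the nematode Caenorhabditis elegans. They are the genes of the deposited table whose symbol begins with spe or spch followed by a number, together with fer-1, gsp-3, gsp-4, smz-1, smz-2, snf-10, try-5 and swm-1. The rule uses symbols only and found 39 of the 20182 genes in the table. Another gene that the rule takes by name, spe-5, had no row of its own and is not analysed here. Total RNA from whole young adults was sequenced in 4 libraries. A pair of libraries represents N2, the usual wild-type strain. The other pair represents worms, here the mutant, in which allele rrr12 alters cey-1 and allele ok858 alters cey-4. Both altered genes encode Y-box proteins, which bind mRNA through a cold shock domain. All worms were grown from hatched larvae on plates with OP50 bacteria and frozen, with no other treatment given in the labels. Whether duplicate libraries represent separate cultures is not stated, so each p-value measures only the spread between these samples, which may be technical.

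In hermaphrodites of this species the germline first makes sperm, late in larval life, and then switches to oocytes, so a young adult carries stored sperm beside a germline that makes oocytes. Spermatocytes switch on sperm genes, load major sperm protein into fibrous bodies attached to membranous organelles, divide by meiosis and bud spermatids off a residual body. Spermatids become crawling spermatozoa when an activation signal fuses the membranous organelles with the cell surface, and surface and secreted proteins then bring sperm and egg together. Mature sperm transcribe little or nothing, and the transcripts of most of these genes are made in spermatocytes. That need not hold for spe-39, which is used in many tissues, or for try-5 and swm-1, of the secreted protease pathway of males.

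Summed gene counts ran from 24717311 to 33009708 per library. Transcripts of cey-4 were counted 23072 and 23781 times in wild type and 338 and 280 times in the mutant, and those of cey-1 4218 and 4042 times against 723 and 609, so the strain labels and the libraries match. Of 13944 genes tested across the whole table, 13.1% rose and 13.3% fell in the mutant (edgeR quasi-likelihood test, adjusted p below 0.05 by the Benjamini-Hochberg method). Levels of a gene are given as CPM, counts relative to the TMM-scaled library total, and are mean ± SD of 2 libraries. A log2 fold change is mutant over wild type and carries the standard error implied by the test. Levels of different genes are compared only as TPM, counts divided by summed exon length and scaled to the same total in each library.

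Sperm genes were mostly higher in the mutant. Of the 39 genes, 38 had enough counts to be tested, 28 of them rose and 0 fell, against a background of 13.1% higher and 13.3% lower. At an unadjusted p below 0.05 there were 30 higher and 1 lower, where 2513 and 2776 of all 13944 tested genes were. DESeq2 gave 24 higher and 0 lower, and 1357 and 1268 over the 13584 genes that it tested. The median log2 fold change was 0.71, where that of all tested genes was -0.01. The changes were moderate. Of the 38 tested genes 6 passed with a rise of over 2-fold, as did 3.58% of all tested genes. Among genes that rose, this was 6 of 28 here and 499 of 1821 across the whole table. The values of the genes named here ran from -0.44 for swm-1 to 1.51 for spe-49. In 33 of the 38 both mutant libraries lay above both wild-type libraries, and in 1 both lay below, where 30.6 and 33.5% of all tested genes did so. Summed over the 39 genes, the level was 715 and 716 CPM in the wild-type libraries and 1060 and 1040 CPM in the mutant libraries. In RNA from whole worms, more cells that make sperm and more of these transcripts per cell cannot be told apart. CPM is relative to the library total, so less RNA from other cells cannot be told apart from these either. Without mutant replicate 1 the median log2 fold change of the sperm genes was 0.68, and without mutant replicate 2 it was 0.81. Each of these fits left a lone mutant library. Fewer genes were then called higher, both among the sperm genes and across the whole table.

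**Figure D1:**
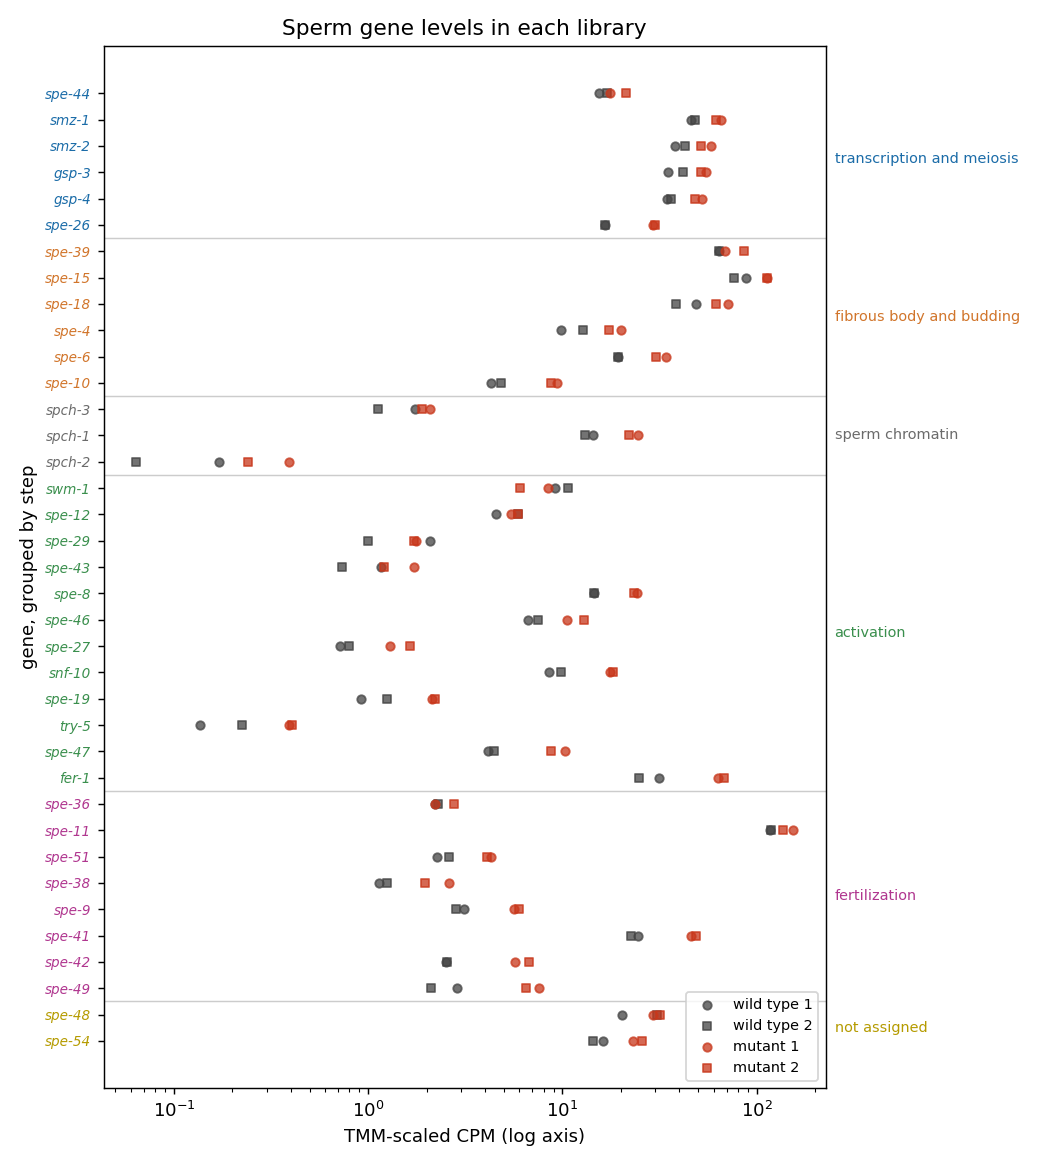
Level of 37 sperm genes in each of the 4 libraries, as TMM-scaled CPM on a log axis, grouped by step. Red symbols (mutant) lie to the right of grey symbols (wild type) in most rows, and swm-1 is the gene whose mutant libraries both lie to the left.

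Genes of sperm transcription and meiosis had the lowest median among the steps with more than 2 tested genes. Of 6 genes 5 rose and 0 fell, with a median log2 fold change of 0.46. The kelch-repeat gene spe-26 (WBGene00004972, chromosome IV, 10389578 to 10391927, minus strand), needed for spermatocytes to complete their divisions, had 16.6 CPM in each wild-type library and 29.1 and 29.9 CPM in the mutant libraries. The replicates nearly coincided, and the log2 fold change was 0.83 ± 0.11 (edgeR adjusted p = 0.000605). The gsp-3 and gsp-4 genes encode near-identical PP1 phosphatases of sperm, used in chromosome segregation and motility, and reads can be split between such copies. For gsp-4 the libraries held 34.3 and 36.1 CPM in wild type and 52.1 and 48 CPM in the mutant (0.51 ± 0.10, edgeR adjusted p = 0.004673). For gsp-3 they held 35 and 41.5 CPM against 54.5 and 51.5 CPM (0.47 ± 0.11, edgeR adjusted p = 0.01042). The related phosphatase genes gsp-1 and gsp-2, which are used in many tissues, had log2 fold changes of -0.08 ± 0.12 and -0.18 ± 0.12 and did not pass, although gsp-2 was called lower without wild-type replicate 2 (-0.33).

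The PDZ-domain genes smz-1 and smz-2, which act in sperm meiotic chromosome segregation, moved by a similar amount. The level of smz-1 was 45.6 and 48.1 CPM in wild type and 65.3 and 61.6 CPM in the mutant (0.44 ± 0.10), and that of smz-2 was 38 and 42.7 CPM against 58 and 51.9 CPM (0.45 ± 0.11). The groups were separate in both genes. Without mutant replicate 1, gsp-3, gsp-4, smz-1 and smz-2 were not called, although their log2 fold changes remained 0.44, 0.46, 0.41 and 0.38. On chromosome IV smz-1 (12455050 to 12456299, plus strand) lies head to head with spe-44 (12452063 to 12454215, minus strand), which encodes a transcription factor for sperm genes. The level of spe-44 was 15.4 and 16.9 CPM in wild type and 17.5 and 21.2 CPM in the mutant (0.26 ± 0.13, edgeR adjusted p = 0.1719), which did not pass.

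Of the 7 genes of fibrous bodies, membranous organelles and budding, 6 rose and 0 fell, with a median log2 fold change of 0.67. The palmitoyltransferase gene spe-10 (chromosome V, 10384250 to 10385740), whose product works in the membranous organelle, had 4.3 and 4.84 CPM in wild type and 9.42 and 8.7 CPM in the mutant. Its log2 fold change of 0.99 ± 0.15 (edgeR adjusted p = 0.001118) was the highest of this step. The casein kinase I gene spe-6, needed to assemble major sperm protein into fibrous bodies and later to hold back activation, rose from 19.4 and 19.3 CPM to 34.2 and 30.4 CPM (0.74 ± 0.11). The presenilin gene spe-4 had 9.85 and 12.7 CPM in wild type and 20.1 and 17.4 CPM in the mutant (0.73 ± 0.15), and was not called without mutant replicate 1 (0.64).

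The same direction was seen at smaller size in the abundant genes of this step. The myosin VI gene spe-15, which sorts material when spermatids bud, went from 88.4 and 75.9 CPM to 113 CPM in each mutant library (0.46 ± 0.10), and was not called without either mutant replicate (0.48 and 0.49). The fibrous body gene spe-18 held 48.8 and 38.4 CPM in wild type and 70.7 and 61.8 CPM in the mutant (0.61 ± 0.13), a call lost without mutant replicate 1 (0.52). The gene that did not pass was spe-39, a vesicle trafficking gene used in many tissues as well as in sperm. Its wild-type libraries held 63.7 and 63.8 CPM and its mutant libraries 69 and 85.8 CPM (0.28 ± 0.11, edgeR adjusted p = 0.09689), and it was called with no filter on low counts (0.30).

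The 3 spch genes encode small basic proteins of sperm chromatin, and are similar to each other in sequence. The most abundant of them, spch-1 (chromosome IV, 10110818 to 10111541, minus strand), rose from 14.4 and 13 CPM to 24.4 and 22 CPM (0.76 ± 0.12, edgeR adjusted p = 0.00153). The level of spch-3 was 1.74 and 1.12 CPM in wild type and 2.09 and 1.89 CPM in the mutant (0.49 ± 0.26), which did not pass, although it was called without wild-type replicate 1 (0.83). The third gene, spch-2, had 5 and 2 counts in the wild-type libraries and 13 and 6 in the mutant libraries, too few to be tested. In TPM the wild-type level of spch-1 was 29.8 ± 3.2, that of spch-3 was 2.79 ± 0.95 and that of spch-2 was 0.244 ± 0.164. How reads shared by similar copies were counted is not stated, so the order of these levels is uncertain.

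**Figure D2:**
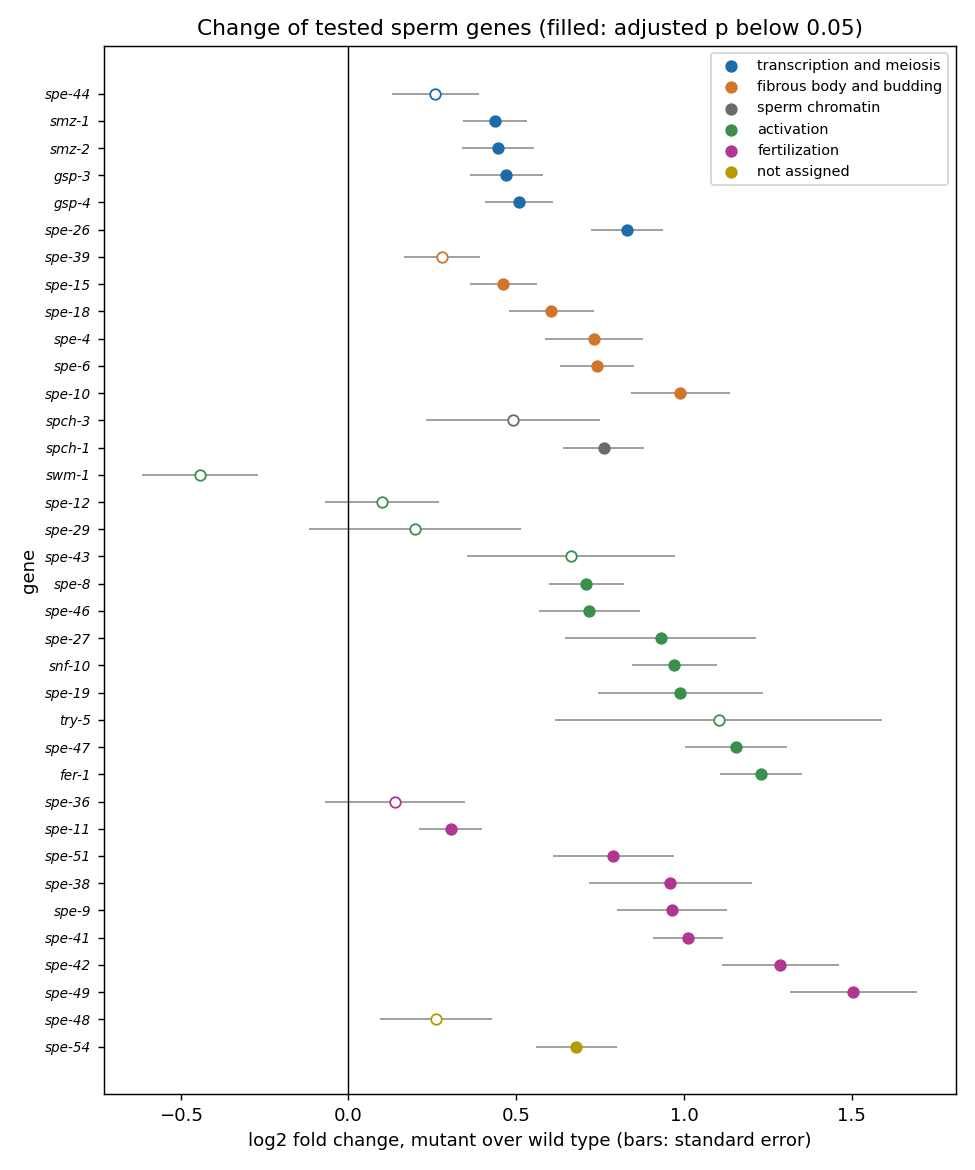
Log2 fold change, mutant over wild type, with its standard error for 36 tested sperm genes, grouped and coloured by step. Filled points passed the test, and all 26 of them lie to the right of 0, from 0.30 for spe-11 to 1.51 for spe-49.

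Activation genes had mixed outcomes. Of 12 genes 7 rose and 0 fell, 1 had an unadjusted p below 0.05 in the lower direction, and DESeq2 gave 5 higher and 0 lower. The median log2 fold change was 0.82. The ferlin gene fer-1 (WBGene00001414, chromosome I, 8623012 to 8631202, minus strand), needed to fuse membranous organelles with the surface, was counted 917 and 770 times in wild type and 2125 and 1680 times in the mutant. Its level was 31.3 and 24.7 CPM against 63.5 and 67.7 CPM, and the lower mutant library stood at 2.03 times the higher wild-type library (log2 fold change 1.23 ± 0.12, edgeR adjusted p = 0.000208). With a summed exon length of 6267 bases fer-1 is the longest of the 39 genes, and with the trend of counts on length removed from each library its change was 1.01.

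The MSP-domain gene spe-47, which restrains activation, rose from 4.13 and 4.42 CPM to 10.3 and 8.74 CPM (1.16 ± 0.15, edgeR adjusted p = 0.000631). The spe-46 gene, also a brake on activation, went from 7.07 ± 0.601 to 11.7 ± 1.7 CPM (0.72 ± 0.15), and was not called without mutant replicate 2 (0.60). Activation in hermaphrodites runs through the spe-8 group, and 3 of its 6 genes in the table rose. The tyrosine kinase gene spe-8 rose from 14.6 and 14.5 CPM to 24.3 and 23.3 CPM (0.71 ± 0.11, edgeR adjusted p = 0.001461). The membrane protein gene spe-19 rose from 1.09 ± 0.233 to 2.17 ± 0.0658 CPM (0.99 ± 0.25), and spe-27 from 0.759 ± 0.0602 to 1.47 ± 0.259 CPM (0.93 ± 0.29). Both are thinly counted, and neither was called by DESeq2 (1.01 and 0.96). The same held when mutant replicate 1 (1.04 and 1.13) or mutant replicate 2 (0.99 and 0.79) was left out, and for spe-27 when wild-type replicate 1 was (0.85).

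The other members of the spe-8 group did not pass. The level of spe-12 was 4.57 and 5.93 CPM in wild type and 5.41 and 5.88 CPM in the mutant (0.10 ± 0.17), so that the groups overlapped. For spe-29 the libraries held 2.08 and 0.993 CPM against 1.76 and 1.73 CPM (0.20 ± 0.32). The wild-type replicates of spe-29 stood farther apart than the groups, and 117 of its 343 exonic bases overlap gon-1 on the opposite strand. The level of spe-43 was 1.16 and 0.737 CPM in wild type and 1.73 and 1.21 CPM in the mutant (0.66 ± 0.31, edgeR adjusted p = 0.1436), and it was called without wild-type replicate 1 (1.02).

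In males activation runs through secreted proteases, and 1 of its 3 genes rose. The transporter gene snf-10, which relays the protease signal, rose from 8.49 and 9.77 CPM to 17.5 and 18.3 CPM (0.97 ± 0.13, edgeR adjusted p = 0.000628). The seminal protease gene try-5 was counted 4 and 7 times in wild type and 13 and 10 times in the mutant, and its log2 fold change of 1.10 ± 0.49 did not pass (edgeR adjusted p = 0.1234). The protease inhibitor gene swm-1 (WBGene00023417, chromosome V, 9054111 to 9054871, minus strand), which prevents premature activation, was the only one of the 38 tested genes with a negative value. Its libraries held 9.14 and 10.7 CPM in wild type and 8.43 and 6.04 CPM in the mutant. The groups did not overlap, but the log2 fold change of -0.44 ± 0.17 missed the threshold (edgeR adjusted p = 0.08446). It was called with no filter on low counts (-0.42), without wild-type replicate 1 (-0.55) and without mutant replicate 1 (-0.70), and with the length trend removed it was -0.19.

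Fertilization genes had the highest median. Of 9 genes 8 rose and 0 fell, DESeq2 gave 7 and 0, and the median log2 fold change was 0.97. The related DC-STAMP domain genes spe-49 and spe-42, which encode membrane proteins that sperm need to fertilize the egg, rose together. For spe-49 the libraries held 2.86 and 2.11 CPM against 7.57 and 6.49 CPM (1.51 ± 0.19, edgeR adjusted p = 0.000542). For spe-42 they held 2.52 and 2.53 CPM against 5.68 and 6.73 CPM (1.29 ± 0.17, edgeR adjusted p = 0.000707).

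The TRPC calcium channel gene spe-41 (also called trp-3; chromosome III, 3439011 to 3444210, minus strand) rose from 24.5 and 22.4 CPM to 45.9 and 48.7 CPM (1.01 ± 0.10, edgeR adjusted p = 0.000261). The EGF-repeat gene spe-9, whose surface protein acts in sperm-egg interaction, went from 3.1 and 2.82 CPM to 5.62 and 5.96 CPM (0.97 ± 0.16). The membrane protein gene spe-38 rose from 1.19 ± 0.0881 to 2.29 ± 0.444 CPM (0.96 ± 0.24), a call not made by DESeq2 (0.97) or without mutant replicate 1 (0.74). The secreted-protein gene spe-51 rose from 2.42 ± 0.244 to 4.19 ± 0.167 CPM (0.79 ± 0.18), and was not called without mutant replicate 1 (0.76). The secreted EGF-domain gene spe-36 held 2.22 and 2.28 CPM in wild type and 2.21 and 2.78 CPM in the mutant. The spe-36 groups overlapped and the log2 fold change was 0.14 ± 0.21.

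The last gene of this step, spe-11 (chromosome I, 5330578 to 5332169, minus strand), encodes a factor that sperm bring into the egg to support its activation. It was the most abundant of the 39 genes per unit length, with a wild-type level of 176 ± 4.57 TPM, and had the smallest change among those that passed. It was counted 3424 and 3699 times in wild type and 5126 and 3405 times in the mutant, which gave 118 ± 1.26 and 145 ± 11.4 CPM (0.30 ± 0.09, edgeR adjusted p = 0.03532). The call was lost with the replicate number as a block (0.30) and without mutant replicate 1 (0.24) or mutant replicate 2 (0.41). No step was assigned to spe-48 and spe-54. The level of spe-54 rose from 16.1 and 14.3 CPM to 23 and 25.7 CPM (0.68 ± 0.12, edgeR adjusted p = 0.002776). That of spe-48 was 20.3 and 30.6 CPM in wild type and 29.2 and 31.9 CPM in the mutant (0.26 ± 0.17). The spe-48 groups overlapped, and the gene was called without wild-type replicate 2 (0.60).

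Across the 4 main steps the median log2 fold change was 0.46 for transcription and meiosis and 0.67 for fibrous bodies and budding. It was 0.82 for activation and 0.97 for fertilization. The ranges overlapped widely, from 0.26 to 0.83 in the first and from 0.14 for spe-36 to 1.51 for spe-49 in the last, and the difference between steps was not tested. For the 2 tested sperm chromatin genes the median was 0.63. With the DESeq2 test the medians for budding and activation were 0.68 and 0.73, and with limma 0.63 and 0.72. Without mutant replicate 1 they were 0.55 and 0.95. Levels per unit length differed widely between the genes. After spe-11, the most abundant genes in wild type were smz-1 (59.5 ± 0.0395 TPM), smz-2 (55.6 ± 2.5), spe-18 (51.9 ± 10.6), gsp-3 (50 ± 4.16), spe-39 (47.9 ± 1.72) and gsp-4 (44.4 ± 0.0452). Toward the other end spe-49 and spe-42 lay at 1.47 ± 0.365 and 1.45 ± 0.0499 TPM. The 19 genes with the higher TPM had a median log2 fold change of 0.51, with 15 of them higher, and the 19 with the lower TPM had 0.97, with 13 higher. Across the 38 genes, which share the same 4 libraries, the Spearman correlation of mean log2 TPM with the log2 fold change was -0.49.

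Over all genes the log2 fold change rose with exon length, and a technical trend and a strain difference cannot be told apart here. The median of the sperm genes was above that of other genes in each range of length. Among 3113 protein-coding genes of at least 1 CPM with exons summing to 1000 bases or less, the median log2 fold change was -0.21, and the 12 tested sperm genes of that length, which were not held to 1 CPM, had a median of 0.67. From 1000 to 2000 bases the medians were -0.05 for 5062 genes and 0.71 for 19 sperm genes, which were not held to 1 CPM either. From 2000 to 4000 bases they were 0.07 for 2788 genes and 0.99 for 6 sperm genes. With the length trend of each library removed, 28 sperm genes were again higher and 0 lower, the same 28, and their median over the 38 was 0.82. The medians of the 4 main steps were then 0.56, 0.78, 0.90 and 0.96, so that the spread between steps was smaller. The Spearman correlation of exon length with log2 fold change across the 38 genes was 0.37 as counted and 0.13 after removal. That of mean log2 TPM was -0.56 after removal.

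**Figure D3:**
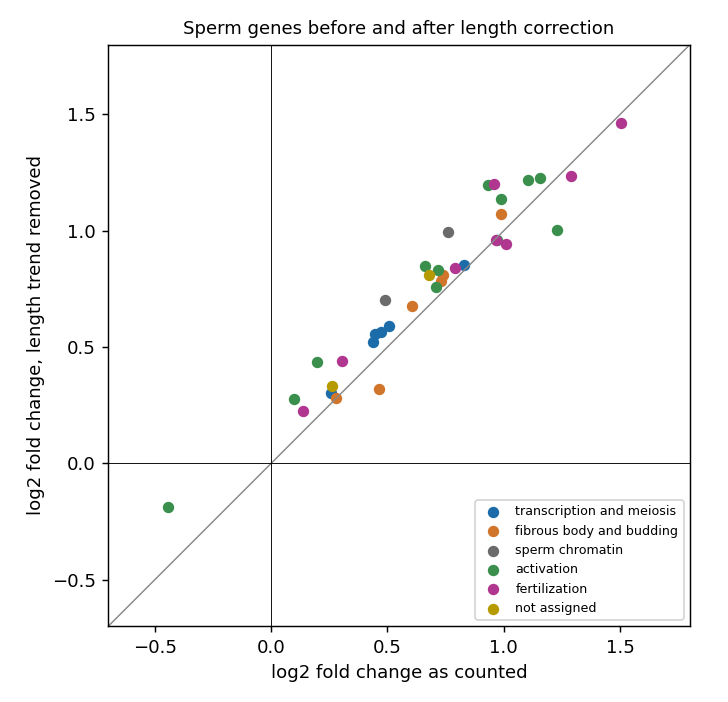
Log2 fold change of 36 tested sperm genes as counted (horizontal axis) and with each library's trend on exon length removed (vertical axis), coloured by step, with the line of equal values. Most genes lie a little above the line, and fer-1 lies below it, at 1.23 as counted and 1.01 after removal.

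Replicate differences of the sperm genes lay on both sides of 0. The median absolute log2 difference between replicates in the 28 genes that rose was 0.16 in wild type and 0.15 in the mutant. Over the 38 tested genes wild-type replicate 2 lay above replicate 1 in 22 and mutant replicate 2 above replicate 1 in 17, with median log2 differences of 0.03 and -0.07. Wide replicate gaps were found in weakly counted genes such as spe-29 (-1.07 in wild type), try-5 (0.72 in wild type) and spe-43 (-0.65 in wild type and -0.52 in the mutant), and also in the better counted spe-48 (0.60 in wild type). In spe-29, spe-48, spe-12 and spch-3 the wild-type replicates, and in spe-12, swm-1, spe-36, spe-39 and spe-44 the mutant replicates, differed by more than the groups did.

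**Figure D4:**
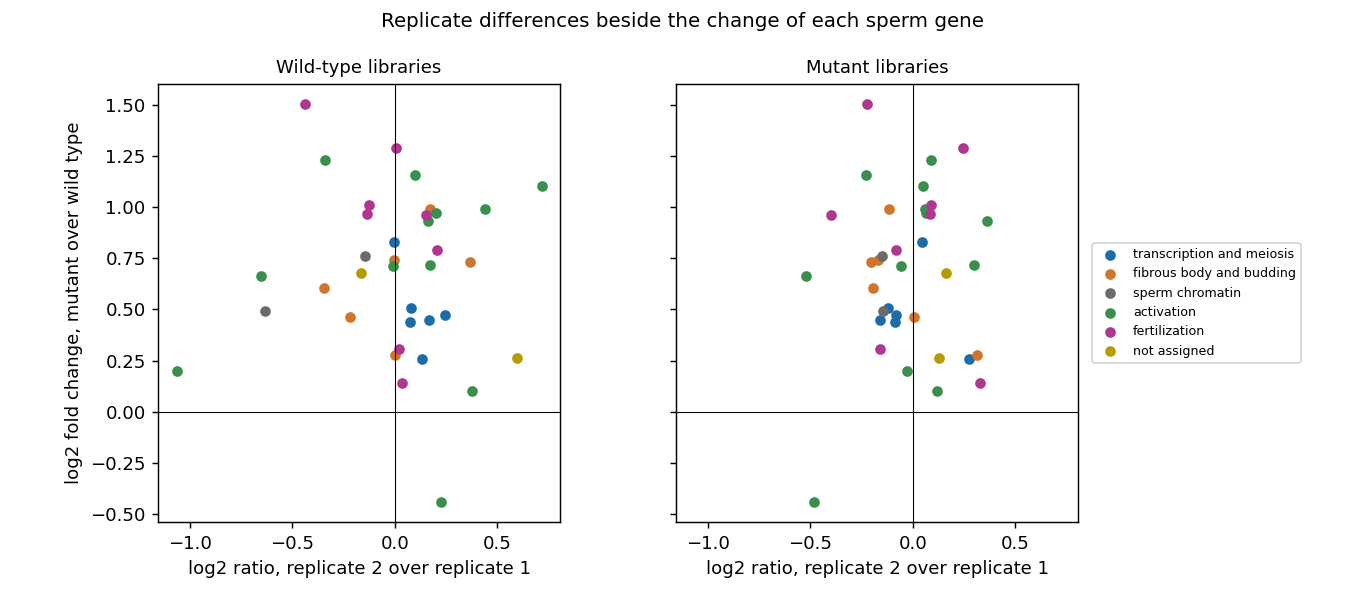
For 36 tested sperm genes, the log2 ratio of replicate 2 to replicate 1 in wild type (left) and in the mutant (right) on the horizontal axis, against the log2 fold change between the groups on the vertical axis. The replicate ratios scatter to both sides of 0, while all genes but swm-1 lie above 0 on the vertical axis.

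By position, 17 of the 39 genes lie on chromosome I, 11 on IV, 8 on V, 2 on III, 1 on II and 0 on X. Of all tested genes 16.4% lie on chromosome I and 13.6% on X. Exons of spe-27 share 61 bases with C06E7.88 on the same strand, and those of spe-38 share 58 with impt-1. Those of spe-36 share 68 with F40F11.3 on the same strand and 62 with F12F6.1 on the other, and those of spe-49 share 63 with srn-1. Antisense noncoding RNA genes overlap fer-1 by 150 and 102 bases and spe-47 by 103 bases. Whether counting used strand is not stated, so a few of these reads cannot be assigned with certainty. Coordinates and overlaps are those of assembly WBcel235.

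Other genes of the sperm pathway, taken from a list chosen by role with earlier results of these data known, were also mostly higher. Of 17 genes, all tested, 10 rose and 1 fell, where 13.1% and 13.3% of all tested genes did so. Among the 17, 2 are gsp-1 and gsp-2, the more widely used relatives of gsp-3 and gsp-4 described above. Among regulators of germline fate and sperm transcription 5 of 7 rose and 0 fell (0 at an unadjusted p below 0.05 and 0 by DESeq2). The GATA factor gene elt-1 went from 6.65 to 12.7 CPM (0.94 ± 0.15), the Argonaute gene alg-4 from 43.5 to 84.6 CPM (0.96 ± 0.09), its relative alg-3 from 34.5 to 59.3 CPM (0.78 ± 0.10) and the RNA-binding protein gene cpb-2 from 11.4 to 19 CPM (0.74 ± 0.13). The sperm fate gene fog-3 rose from 0.538 to 1.54 CPM (1.50 ± 0.36), and was not called without either mutant replicate (1.46 and 1.57). Its partner fog-1 had a log2 fold change of 0.04 ± 0.11, and cpb-1, needed for spermatocyte meiosis, one of 0.27 ± 0.12, called without wild-type replicate 1 (0.45).

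Among spermatocyte and chromatin genes the kinase genes gskl-1 and gskl-2 rose by similar amounts (0.99 ± 0.15 and 1.02 ± 0.10), and so did the phosphatase gene cdc-25.4 (1.18 ± 0.20). The sperm histone gene htas-1 rose as well (0.52 ± 0.13), although not without mutant replicate 1 (0.36), while wee-1.3, a kinase gene also active in oocytes, had a value of 0.02 ± 0.09. The sperm competition gene comp-1 rose (0.52 ± 0.12), a call lost without mutant replicate 1 (0.52), and vps-33.2 had a value of 0.04 ± 0.09. The zinc transporter gene zipt-7.1 was the gene that fell, from 43.8 to 35.6 CPM (-0.30 ± 0.10, edgeR adjusted p = 0.04629). That call was made in the fit without wild-type replicate 1 but in no other alternative, where the values ran from -0.34 to -0.22. No value is given for peel-1, which is not analysed here.

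Markers of other cells show what else differed between the groups. All counts of markers below stand beside 13.1% higher and 13.3% lower over all tested genes. Of 60 genes of other sperm families (msp, ssp, nspd, ssq and msd), 41 were tested, 16 rose and 0 fell (23 and 0 at an unadjusted p below 0.05, 13 and 0 by DESeq2), and their summed level was 1140 and 1180 CPM in wild type and 1700 and 1550 CPM in the mutant. In 13 of the 60, 8 of them msp genes, every library was at 0. How reads shared by similar copies were counted is not stated. A gene at 0 therefore need not be silent, and the sums of these families may be too low. All 4 ssq genes rose, and their sum went from 516 and 385 CPM to 790 and 782 CPM, most of the rise of the list. The msp genes had 4 of 18 higher, with overlapping sums (56.3 and 72.3 CPM against 82.2 and 70.2 CPM). Of these 18 genes, 16 had positive and 2 negative values, and their median log2 fold change was 0.67. The ssp genes had 4 of 10 higher (174 and 213 CPM against 242 and 214 CPM) and the nspd genes 4 of 7 (206 and 247 CPM against 336 and 273 CPM). The sums of the msd genes overlapped (192 and 260 CPM against 249 and 210 CPM). Of 10 oocyte markers 3 fell and 0 rose, by edgeR and by DESeq2 (7 and 0 at an unadjusted p below 0.05), and their sum was 8340 and 7640 CPM in wild type and 6490 and 6800 CPM in the mutant. Of 8 markers of the mitotic and early meiotic germline 0 passed in either direction, by edgeR or DESeq2 (1 lower at an unadjusted p below 0.05), with sums of 1390 and 1300 CPM against 1170 and 1260 CPM.

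Markers of the soma gave several directions. All 3 body wall muscle markers rose, with sums of 5340 and 5620 CPM against 7960 and 8180 CPM. Their median exon length was 6100 bases and their median log2 fold change was 0.44. The 717 protein-coding genes of at least 1 CPM with exons over 4000 bases had a median of 0.19. The muscle gene unc-15 is shorter, with 3424 exonic bases, and had a log2 fold change of 0.38 ± 0.09. The 2788 such genes of 2000 to 4000 bases had a median of 0.07. Of 5 intestinal markers 2 rose (1100 and 967 CPM against 1230 and 1290 CPM), and of 4 neuronal markers 1 rose (83.1 and 89.3 CPM against 94.2 and 99.7 CPM). The neuronal gene that rose was unc-104, while the other 3 had negative values, 1 of them with an unadjusted p below 0.05, and the list's median log2 fold change was -0.14. Of 4 epidermal markers 1 rose and 1 fell (2310 and 2790 CPM against 2090 and 1900 CPM). Nearly all of the epidermal sum was col-19, the gene that fell, and the other 3 had positive values, with a list median of 0.38. Of the 4 spermatheca and somatic gonad markers 0 passed (1 lower at an unadjusted p below 0.05, 0 by DESeq2), with sums of 23.4 and 26.1 CPM against 26.2 and 26 CPM. The 6 markers of the male soma and male nervous system were near 0, with sums of 1.33 and 1.83 CPM in wild type and 1.58 and 1.41 CPM in the mutant, and clec-164 was at 0 in wild type. The part of these other differences in the rise of the sperm genes was not tested.

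**Figure D5:**
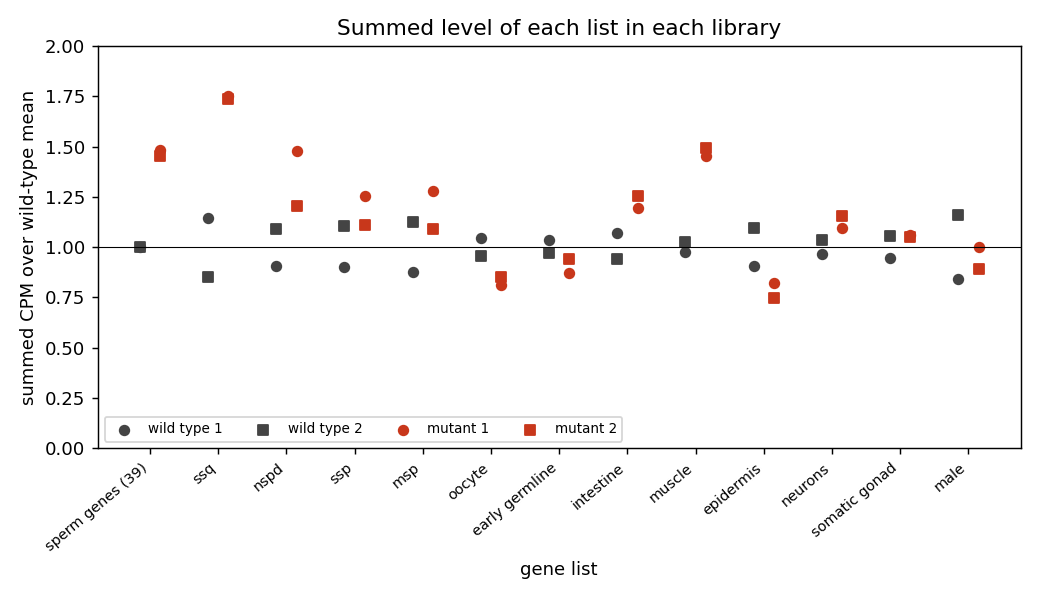
Summed CPM of each gene list in each library, divided by the list's wild-type mean (vertical axis, linear from 0), for the 39 sperm genes, other sperm gene families and markers of other cells. Both mutant libraries lie above both wild-type libraries for the sperm genes (1060 and 1040 CPM against 715 and 716) and below them for oocyte markers (6490 and 6800 CPM against 8340 and 7640).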

How the data were processed

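Per the labels' protocols, Trizol was used on lysates of whole young adults and ScriptSeq v2 to prepare libraries. The authors deposited raw counts per gene for 4 libraries. They also deposited log2 values, which equal log2 of the scaled count plus 8 with a largest gap of 0.00051. The labels and headers name no aligner, counter, build or annotation. Symbols came from a name table (18778 of 20182 genes). Positions and merged exon lengths came from the Ensembl annotation of WBcel235 (19513 genes, all 39 sperm genes). No genome or sequence table was used, so a planned search of promoters for motifs was not made.

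Groups and replicate numbers came from the sample titles. Counts were tested with edgeR 4.0.16 in R 4.3.3 (TMM, default expression filter, quasi-likelihood F test, threshold 0.05, adjustment over all tested genes), with simulated data used as a check of the script. DESeq2 1.42.0, limma 3.58.1 on the deposited log2 values, other scalings and filters, each replicate left out, a replicate block and correction of each library for a lowess fit of its counts on exon length were alternatives. Counts and medians cover all the sperm genes, of which 2 are not reported here by name or plotted. The other sperm genes may be named, and values per library were given for the genes listed by name in the rule, the tested spch genes, and the 3 largest changes and most abundant gene of each step. The members, lists and alternatives were chosen with earlier results of these data known.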

Additional observations from a re-analysis of the deposited data

How the results depend on the processing

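The 28 sperm genes called higher were the same 28 with DESeq2 size factors, library size alone, the length trend removed and limma on the deposited log2 values. There were 29 with no filter on low counts (which added spe-39), 27 with the replicate number as a block, 26 with a mean of at least 50 counts (which left out spe-19 and spe-27 as untested) and 24 with the DESeq2 test, and from 15 to 29 when a replicate was left out. The lowest of these, 15, was the fit without mutant replicate 1, and most genes that lost their call are named beside their values above. Fits that leave a lone library assume that it varies like the other group. The fits without a mutant replicate also called fewer genes higher across the whole table. In every alternative that tested them 14 of the 28 were called. The number called lower was 0, and 1 (swm-1) with no filter on low counts, and from 0 to 1 when a replicate was left out.

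Values that changed sign belonged to genes that had not passed. With each replicate left out in turn they ran from -0.074 to 0.32 for spe-12, from -0.23 to 0.81 for spe-29, from -0.0068 to 0.60 for spe-48, from -0.23 to 0.098 for gsp-1, from -0.33 to 0.0087 for gsp-2 and from -0.034 to 0.092 for wee-1.3. With the length trend removed wee-1.3 had -0.020. For the other pathway genes, whose alternatives were chosen after seeing the data, 10 were higher, and from 7 to 11 without a replicate. The number lower was 1, from 0 to 1 without a replicate, and 0 with DESeq2 size factors, library size alone, no filter, a mean of at least 50 counts, the replicate block, the length trend removed, DESeq2 and limma.

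Libraries with the same replicate number showed no shared shift (correlation of deviations from the group means -0.09). That value cannot tell whether equal numbers mark a shared culture or day. With the replicate block spe-11 lost its call among the sperm genes and zipt-7.1 among the other pathway genes. The cause of these shifts was not tested. With 2 libraries a group, the number of libraries limits precision, and genes below about 2 CPM are also limited by depth.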
